A study of Mus musculus with 24 samples.

Results

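The genes described here are Hspa5, Hsp90b1, Pdia4, Pdia6, Calr, Dnajb9, Sdf2l1, Creld2, Xbp1 and Herpud1, which code for chaperones, folding enzymes and control factors of the endoplasmic reticulum (ER). They were chosen by symbol, all 10 were found among the 18193 genes of the array, and each gene was read from its brightest probe set, by the mean of the 24 arrays. Genes with a log2 value over 4 on 4 or more arrays were tested, which kept 9 of the 10 among 13494 genes and left Pdia4 untested. The study measured RNA with Affymetrix mouse expression arrays in 3 parts of the suprachiasmatic nucleus (SCN), the hypothalamic nucleus that holds the circadian clock of mammals.

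The groups were light-pulsed ventral, central and dorsal SCN, and sham-treated ventral, central and dorsal SCN, with 4 arrays each. All came from adult C57BL/6 mice, obtained at 8 weeks of age, that had spent at least 7 days in constant dim red light with no timing cues. Pulsed mice received 30 min of light chosen to advance the clock, sham mice a sham treatment of the same length, and both were killed 3.5 h later. The regions, labelled ventral core, central middle and dorsal shell, were cut by laser from stained sections 25 µm thick. Arrays 1 and 2 of each group were amplified and labelled in batch A, and arrays 3 and 4 in batch B. The labels do not tie arrays to animals or say whether animals were pooled, so p-values measure only the spread between these samples, which may be technical.

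Proteins that a cell secretes or places in its membranes are folded in the ER. When unfolded proteins build up there, sensors in the ER membrane start the unfolded protein response: IRE1 splices the Xbp1 mRNA into a form that codes for an active transcription factor, ATF6 is cut to release another, and PERK slows translation. These factors raise the mRNA of ER chaperones and of ER-associated degradation, in part through a promoter element called the ER stress response element (ERSE). SCN neurons make and release peptides such as vasoactive intestinal peptide and vasopressin, which pass through the ER.

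The promoter sequences are shown because the ERSE is a known element through which ER stress raises genes of this kind. Array values were not compared between genes with and without it. The ERSE was searched as CCAAT and CCACG with 9 bases of any kind between them, on both strands, in RefSeq windows from 250 bases before to 50 bases after each gene's start (GRCm38.p6). It was present in the windows of 5 of the 10 genes and in 0.137% of 27025 genes of the same table. Herpud1 held the related ERSE-II, which is ATTGG and CCACG with 1 base of any kind between them and which occurred in 0.0444% of genes. Capitals mark the match, each sequence runs 5′ to 3′ along the gene's strand with 6 flanking bases, and matches that begin with CGTGG lie in the reverse orientation.
Hspa5: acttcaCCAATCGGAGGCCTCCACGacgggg
Hsp90b1, distal: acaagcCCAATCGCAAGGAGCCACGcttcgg
Hsp90b1, proximal: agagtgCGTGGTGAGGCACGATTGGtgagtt
Pdia6: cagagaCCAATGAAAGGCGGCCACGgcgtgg
Calr: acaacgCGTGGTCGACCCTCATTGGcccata
Creld2: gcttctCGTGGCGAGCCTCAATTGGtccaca
Herpud1, ERSE-II: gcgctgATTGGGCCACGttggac

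The Hspa5 match lay from 65 to 47 bases before the start, at chr2:34772025-34772043, with the gene on the plus strand. Hsp90b1, a gene on the minus strand, held 2 matches in opposite orientations, at chr10:86705638-86705656 (212 to 194 bases before the start) and chr10:86705533-86705551 (107 to 89 bases before it). The match of Pdia6 was at chr12:17266491-17266509, with the gene on the plus strand, that of Calr at chr8:84847075-84847093, with the gene on the minus strand, and that of Creld2 at chr15:88819520-88819538, with the gene on the plus strand. The ERSE-II of Herpud1 lay at chr8:94386377-94386387, from 52 to 42 bases before the start. Neither element's letters were in the windows of Pdia4, Dnajb9, Sdf2l1 and Xbp1. Neither the UPR element TGACGTGG (0.714% of genes) nor the cAMP response element TGACGTCA (2.03%) was in any of the 10 windows, searched on both strands. A match of letters is a description and does not show that a factor binds there.

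The arrays themselves set limits that apply to every gene. Batch B arrays had medians of 4.81 to 5.07 log2 units and batch A arrays of 3.52 to 3.62, so the results below come from fits with batch as a term, or from 1 batch. Pulsed dorsal array 4 stood apart: its Gapdh 3′ minus 5′ difference, a measure of RNA integrity that is larger in degraded RNA, was 5.41, against 0.887 to 1.07 on the other 11 batch B arrays and 2.02 to 3.28 in batch A. Its median correlation with its own batch was 0.872, against 0.976 to 0.983 for the others. The dorsal light differences of the tested ER genes, and the other dorsal values where the sign turned or the size moved by over 1.5 times, are therefore also given without it. Only some regional markers fitted their labels. Vip was higher in ventral than in dorsal SCN by 3.43 ± 0.298 log2 units (SE, adjusted p = 9.97e-08, limma). Avp was lower there by 1.43 (log2 difference −1.43 ± 0.249, adjusted p = 0.00074). At an adjusted p under 0.05, 3 of 5 ventral core markers were higher and 1 lower in ventral than in dorsal SCN. Of 5 dorsal shell markers, 1 was lower and 0 were higher. Grp, a ventral core marker, was lower in ventral than in central SCN (−0.89 ± 0.141, adjusted p = 0.000251). Of 6 genes known to respond to light (Nptx1, Egr3, Fosb, Crem, Per2 and Vgf), 6 passed as higher with light in ventral, 5 in central and 2 in dorsal SCN. In dorsal SCN all 6 differences were above 0, with a median of 1.29, and 5 had an unadjusted p under 0.05. These genes were listed with earlier results of these data known, so they are not an independent check.

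None of the 9 tested genes passed the test for a light effect in any region. In ventral, central and dorsal SCN, 0 of 9 passed at an adjusted p under 0.05, while 0.719%, 0.385% and 0.178% of all tested genes passed there. Of the 27 light differences, 1 had an unadjusted p under 0.05 (Xbp1 in central SCN), against 6.56%, 8.06% and 10.1% of tested genes in ventral, central and dorsal SCN. The median log2 difference of the 9 genes, pulsed minus sham, was 0.024 in ventral, 0.11 in central and −0.080 in dorsal SCN, beside −0.034, −0.077 and −0.027 over all tested genes. The dorsal median was 0.079 without pulsed dorsal array 4, beside −0.017 over all tested genes. Of the 27 95% intervals, 25 lay wholly between −1 and 1, with a lowest lower bound of −0.96 and a highest upper bound of 1.20, so for those 25 a change beyond 2-fold in either direction falls outside the interval. Over the mean of the regions 0 of 9 passed, against 0.408% of tested genes, and in the test of whether the light effect differed among regions 0 of 9 passed, against 0.00741%. Bulk samples cannot tell fewer cells of a type from less RNA per cell.

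**Figure D1:**
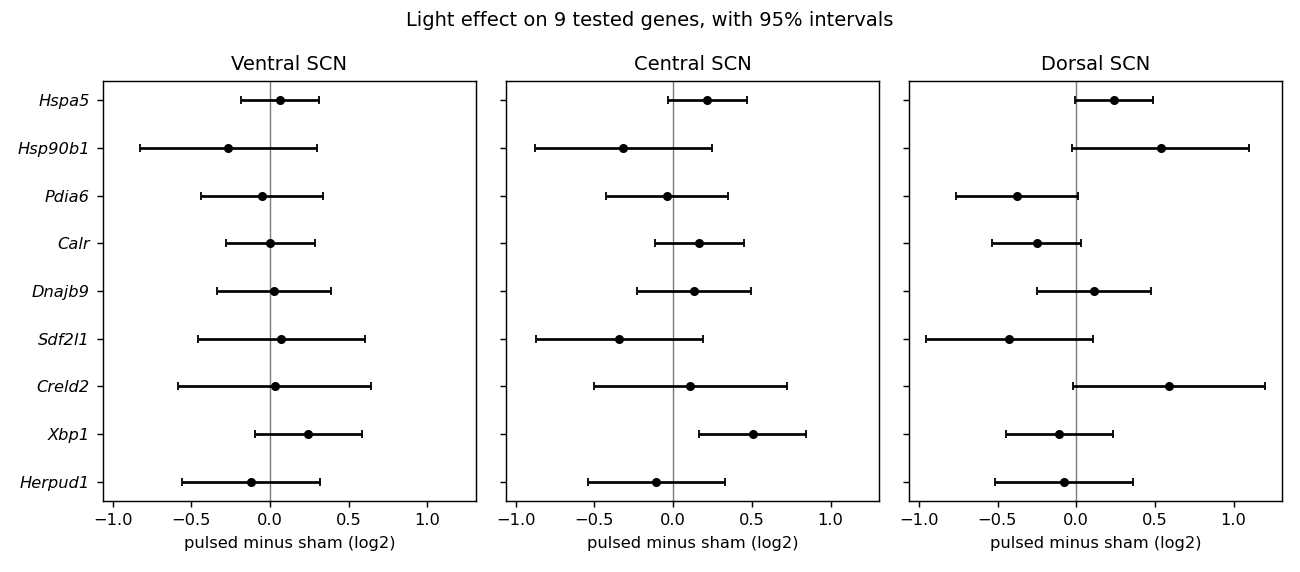
Light effect on each tested ER gene in ventral, central and dorsal SCN, as the log2 difference of 4 pulsed minus 4 sham arrays (points) with 95% intervals (bars) from the fit with batch as a term. The interval of Xbp1 in central SCN, 0.16 to 0.85, is the one that leaves out 0, before adjustment over all tested genes.

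Hspa5 codes for BiP, the main ER chaperone of the Hsp70 family and the protein that holds the stress sensors inactive. Its values are log2 expression of the brightest of 3 probe sets. In ventral SCN they were 9.75, 9.70, 11.63 and 11.86 on pulsed arrays 1 to 4, against 9.68, 9.78, 11.57 and 11.67 on sham arrays 1 to 4. Pulsed and sham overlapped in both batches there, and the difference was 0.064 ± 0.120. In central SCN they were 10.17, 9.95, 11.86 and 11.997 on pulsed arrays, against 9.91, 9.89, 11.61 and 11.69 on sham arrays. All pulsed central arrays lay above the sham arrays of their batch, by 0.22 ± 0.120 log2 units on average (SE, adjusted p = 0.708), a pattern found in 2.99% of tested genes. In dorsal SCN they were 10.22, 10.14, 11.75 and 11.80 on pulsed arrays, against 9.69, 9.88, 11.62 and 11.76 on sham arrays. The batch A arrays did not overlap and the batch B arrays did, and the difference was 0.24 ± 0.120 (adjusted p = 0.498).

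The 95% intervals of the leading Hspa5 probe set over all arrays were −0.19 to 0.31 in ventral, −0.032 to 0.47 in central and −0.011 to 0.49 in dorsal SCN. Its dorsal difference was 0.40 within batch A alone, 0.083 within batch B alone and 0.27 without pulsed dorsal array 4. The 2 other probe sets gave 0.17, 0.31 and 0.098, and 0.056, 0.18 and 0.054, in ventral, central and dorsal SCN. Without pulsed dorsal array 4 those 2 dorsal values were 0.30 and −0.34. Over the mean of the 3 regions, the difference was 0.17 ± 0.122 (adjusted p = 0.739).

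Xbp1 codes for the transcription factor that is made active by IRE1 splicing and that drives chaperone and degradation genes. In central SCN its leading probe set read 7.39, 6.92, 8.51 and 8.68 on pulsed arrays 1 to 4, against 6.89, 6.83, 7.87 and 7.88 on sham arrays. All pulsed arrays lay above the sham arrays of their batch, as in 2.99% of tested genes, with array 2 only a little above. The difference was 0.50 ± 0.165 log2 units (SE, 95% interval 0.16 to 0.85, fold 1.42, adjusted p = 0.320). Within batch A alone it was 0.29 and within batch B alone 0.72. It passed with array weights (0.63, adjusted p = 0.0075) and with quantile normalization within each batch (0.63, adjusted p = 0.0129), and it did not pass without any 1 array (0.41 to 0.65, adjusted p 0.0856 to 0.546).

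In ventral SCN, Xbp1 read 7.27, 6.98, 8.20 and 8.45 on pulsed arrays, against 7.11, 6.82, 7.93 and 8.07 on sham arrays, a difference of 0.24 ± 0.165 (adjusted p = 1.00). In dorsal SCN it read 7.58, 7.41, 8.42 and 7.94 on pulsed arrays, against 7.61, 7.21, 8.49 and 8.45 on sham arrays, a difference of −0.11 ± 0.165 (adjusted p = 0.794). Pulsed and sham overlapped in batch A of both regions, and in batch B the pulsed arrays lay above sham in ventral and below it in dorsal SCN. Pulsed dorsal array 4 was the lowest batch B array there, and without it the difference was 0.045. The light effect was 0.61 log2 units larger in central than in dorsal SCN, but the test across the 3 regions did not pass (unadjusted p = 0.0495, a level that 2.05% of tested genes reached, adjusted p = 1.00). That unadjusted p was 0.101 without pulsed dorsal array 4.

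The 4 probe sets of Xbp1 were 1420012_at, 1420011_s_at, 1437223_s_at and 1420886_a_at. In that order they gave central light differences of 0.50, 0.43, 0.64 and 0.60, all above 0. In ventral SCN they gave 0.24, 0.38, 0.31 and 0.44. In dorsal SCN they gave −0.11, 0.080, 0.77 and −0.088, and without pulsed dorsal array 4 they gave 0.045, 0.28, 0.38 and 0.42. On that array the probe set 1420886_a_at read 6.40, against 8.23 on pulsed dorsal array 3, while 1437223_s_at read 9.62, so the probe sets moved in opposite directions on it. The probe sets share the same RNA and are not replicates.

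**Figure D2:**
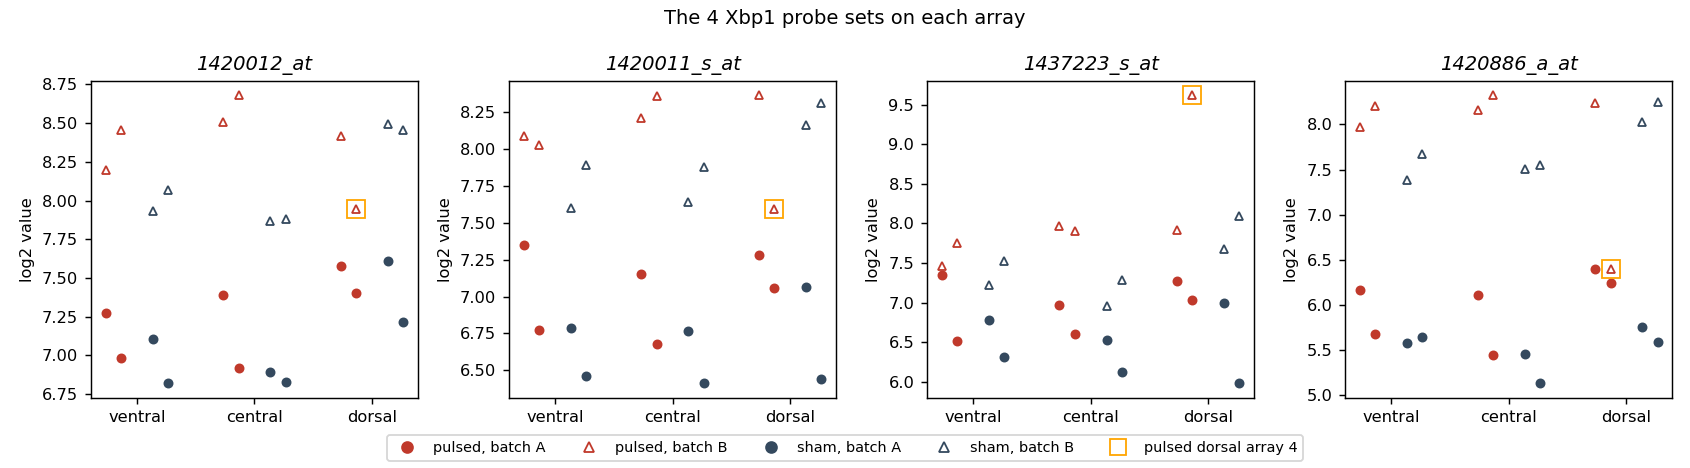
Log2 value of the 4 Xbp1 probe sets on each array, by region, with pulsed arrays left of sham arrays, batch A as filled circles and batch B as open triangles. In central SCN the pulsed arrays sit above sham arrays on average on every probe set, with differences of 0.43 to 0.64, while pulsed dorsal array 4 (boxed) sits high on 1437223_s_at and low on 1420886_a_at.

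Hsp90b1 (GRP94, the ER member of the Hsp90 family) had light differences of −0.26, −0.32 and 0.54 ± 0.271 in ventral, central and dorsal SCN, and the second probe set of the gene gave 0.070, 0.17 and 0.082. Its dorsal leading values were 8.45, 7.58, 9.94 and 10.81 on pulsed arrays, against 7.18, 7.58, 9.95 and 9.93 on sham arrays. Pulsed arrays 1 and 4 were the highest of their batches, and the groups overlapped in both batches. Without pulsed array 4 it was 0.44. The test across regions gave an unadjusted p of 0.0653 for Hsp90b1, or 0.131 without that array, and its light difference was 0.85 lower in central than in dorsal SCN (−0.85).

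Calr codes for calreticulin, a lectin chaperone of glycoproteins. Its light differences were 0.0012, 0.17 and −0.25 ± 0.137 in ventral, central and dorsal SCN. In central SCN it read 10.34, 10.55, 11.84 and 11.71 on pulsed arrays, against 10.28, 10.28, 11.58 and 11.64 on sham arrays. The pulsed arrays lay above sham in both batches there, as in 2.99% of tested genes, and the difference did not pass (adjusted p = 0.865). In dorsal SCN pulsed array 4 read 11.00, below the other 3 batch B dorsal arrays, and without it the difference was −0.12.

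Pdia6 codes for a protein disulfide isomerase, which forms and rearranges disulfide bonds. Its light differences were −0.050, −0.041 and −0.38 ± 0.187 (95% interval −0.76 to 0.012 in dorsal SCN, adjusted p = 0.496). Pulsed dorsal array 4 read 6.78 against 7.70 on pulsed dorsal array 3, and without array 4 the difference was −0.13. Sdf2l1, a protein of the BiP complex, had light differences of 0.070, −0.34 and −0.43 ± 0.255. In central SCN its pulsed arrays read 4.12, 4.11, 5.56 and 5.64, against 4.67, 4.35, 5.86 and 5.92 on sham arrays. All pulsed arrays lay below sham in their batch there, as in 6.36% of tested genes, and adjusted p was 0.838. The batch A values of Sdf2l1 there were close to the filter level of 4. In dorsal SCN the difference was −0.071 without pulsed array 4, which read 4.69 against 6.21 on pulsed array 3.

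Creld2, which codes for a disulfide isomerase induced by ER stress, had light differences of 0.029, 0.11 and 0.59 ± 0.294 in ventral, central and dorsal SCN. Its dorsal values were 5.56, 4.70, 7.21 and 8.59 on pulsed arrays, against 4.77, 4.78, 7.39 and 6.76 on sham arrays. Pulsed and sham overlapped in both batches, and pulsed array 4 was the highest of all 8 dorsal arrays. Without it the dorsal difference was 0.27. In central SCN the pulsed arrays lay below sham in batch A (means 4.23 against 4.87) and above it in batch B (7.17 against 6.32). The central difference of 0.11 thus averages opposite differences of the batches. In batch A, pulsed central array 2 read 3.97, under the filter level of 4.

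Dnajb9 (ERdj4, a co-chaperone of BiP) had light differences of 0.024, 0.13 and 0.11 ± 0.174, the dorsal one 0.084 without pulsed array 4. Herpud1, a membrane protein of the degradation machinery, had light differences of −0.12, −0.11 and −0.080 ± 0.211 in ventral, central and dorsal SCN, and its second probe set gave 0.011, 0.19 and 0.22. Without pulsed array 4 the dorsal difference of Herpud1 turned sign, to 0.079, and that of its second probe set was 0.14. Neither gene separated pulsed from sham in both batches of any region. Pdia4, a disulfide isomerase with 2 probe sets, was listed from 2.95 to 4.61 across the 24 arrays, and it exceeded 4 on 3 arrays. At that level the arrays do not measure it well enough to compare groups.

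**Figure D3:**
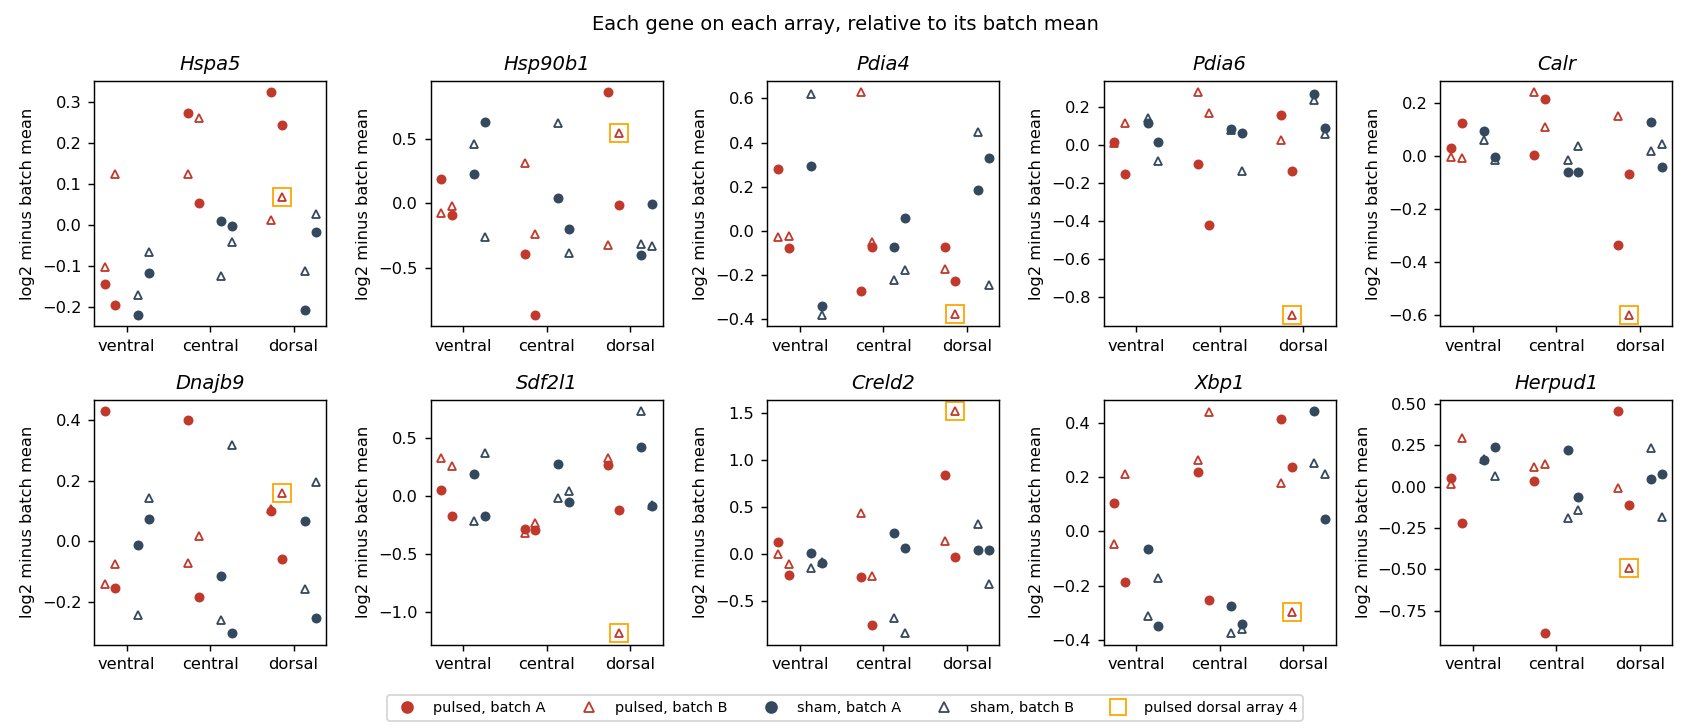
Each of the 10 ER genes on each array as log2 value minus the mean of its batch, by region, with pulsed arrays left of sham arrays, batch A as filled circles and batch B as open triangles. Pulsed dorsal array 4 (boxed) is the lowest array for Pdia6, Calr and Sdf2l1 and the highest for Creld2.

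Levels by region were compared over both treatments, 8 arrays against 8. Of the 9 genes, 0 passed in ventral against dorsal, ventral against central or central against dorsal SCN, while 4.61%, 5.2% and 7.11% of all tested genes passed. Of 27 region values, 4 had an unadjusted p under 0.05, against 15%, 12.9% and 19.3% of tested genes. The medians of the 9 genes were 0.045, 0.027 and −0.099, beside 0.0079, 0.053 and −0.052 over all tested genes. Without pulsed dorsal array 4 the median for ventral against dorsal SCN was −0.073, beside 0.0035 over all tested genes.

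Xbp1 averaged 0.13 ± 0.30 on pulsed and 0.24 ± 0.16 on sham dorsal arrays (log2 value minus batch mean, SD, n = 4), 0.021 ± 0.17 on pulsed and −0.22 ± 0.13 on sham ventral arrays, and 0.17 ± 0.29 on pulsed and −0.34 ± 0.044 on sham central arrays. It was lower by 0.29 in ventral than in dorsal SCN (log2 difference −0.29 ± 0.117, adjusted p = 0.226) and by 0.27 in central than in dorsal SCN (−0.27 ± 0.117, adjusted p = 0.194), while ventral and central differed by −0.016. The dorsal comparisons passed without pulsed dorsal array 4 (−0.36, adjusted p = 0.0395 from ventral, and −0.35, adjusted p = 0.0357 from central). On sham arrays alone the central minus dorsal difference was −0.58 (adjusted p = 0.0848).

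Creld2 was lower by 0.57 in central than in dorsal SCN (−0.57 ± 0.208, adjusted p = 0.109, 95% interval −1.0 to −0.14), and it passed without pulsed dorsal array 2 (−0.69, adjusted p = 0.0383). Without pulsed dorsal array 4, its highest array, it was −0.41 (adjusted p = 0.186), and the ventral minus dorsal difference of Creld2 was −0.22, against −0.38 with all arrays. Hspa5 was lower by 0.18 in ventral than in central SCN (−0.18 ± 0.0852, adjusted p = 0.367) and by 0.15 in ventral than in dorsal SCN (−0.15 ± 0.0852). Central and dorsal SCN differed by 0.027 in Hspa5, less than its spread, and by 0.011 without pulsed dorsal array 4. Across the 3 region comparisons the log2 differences of the 9 genes ran from −0.57 to 0.27.

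The other ER genes were taken from 4 lists. Of 28 tested ER chaperones and folding enzymes, 23 tested genes of ER-associated degradation and 39 of ER translocation and transport to the Golgi, 0 passed with light in ventral, central or dorsal SCN. At an unadjusted p under 0.05 the chaperones numbered 2, 0 and 4 in those regions, the degradation genes 3, 0 and 3, and the transport genes 0, 1 and 3, beside 6.56%, 8.06% and 10.1% of all tested genes. Their median log2 differences were −0.027, −0.11 and −0.011 for chaperones, 0.065, −0.021 and −0.012 for degradation, and 0.080, 0.012 and −0.027 for transport. The 3 dorsal medians were 0.092, 0.074 and 0.10 without pulsed dorsal array 4, and so turned sign. Among chaperones and enzymes with the smallest p, Dnajb11, a BiP co-chaperone, was at 0.61 in ventral SCN (adjusted p = 0.563), and Fkbp7, a prolyl isomerase, was at 0.81 in dorsal SCN (adjusted p = 0.328). Of the degradation genes, Ube2j1, a ubiquitin-conjugating enzyme, was at 0.42 in ventral SCN (adjusted p = 0.408), and Ubxn4, a recruiter of the extraction ATPase, was at 0.42 in dorsal SCN (adjusted p = 0.305). Of the transport genes, Lman1, a cargo receptor, was at −0.61 in central SCN (adjusted p = 0.509), and Tmed2, a vesicle coat protein receptor, was at 0.64 in dorsal SCN (adjusted p = 0.424).

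Of 22 tested sensors and transcription factors of the unfolded protein response, 1 passed as higher with light in each region. Of all tested genes 0.719%, 0.385% and 0.178% passed in ventral, central and dorsal SCN. The gene of the list that passed was Creb3l1, which codes for OASIS, an ER-membrane transcription factor. At an unadjusted p under 0.05 the list had 1, 2 and 2 genes, beside 6.56%, 8.06% and 10.1% of all tested genes. The medians of that list were 0.061, 0.053 and 0.097 in ventral, central and dorsal SCN, beside −0.034, −0.077 and −0.027 over all tested genes. The sensor genes themselves did not pass: Ern1 (IRE1) was at 0.0071, 0.16 and 0.47, Eif2ak3 (PERK) at 0.030, 0.070 and 0.0061, and Atf6 at −0.035, −0.067 and −0.32. Nor did Atf4 (0.033, −0.031 and −0.086) or Ddit3 (0.11, −0.13 and −0.074), the transcription factors downstream of PERK. Without pulsed dorsal array 4 the dorsal difference of Atf6 was 0.041, that of Ddit3 0.089, that of Atf4 −0.053 and that of Eif2ak3 0.19.

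In ventral SCN Creb3l1 read 4.84, 6.33, 7.02 and 7.38 on pulsed arrays, against 3.99, 3.72, 6.02 and 5.45 on sham arrays. In central SCN it read 5.35, 5.26, 7.41 and 7.54 on pulsed arrays, against 3.91, 3.57, 6.31 and 5.87 on sham arrays. In dorsal SCN it read 5.36, 5.96, 6.90 and 7.21 on pulsed arrays, against 3.48, 3.98, 6.20 and 5.89 on sham arrays. In every region and batch the pulsed arrays lay above the sham arrays. In central SCN alone that pattern was found in 2.99% of tested genes. Creb3l1 was named because it passed on these arrays, so the separation is no further support. All batch A sham arrays were below the filter level of 4, so the sizes of the batch A differences and of the pooled ones are uncertain. The log2 differences were 1.60 ± 0.269 (adjusted p = 0.00326) in ventral, 1.48 ± 0.269 (adjusted p = 0.00949) in central and 1.47 ± 0.269 (adjusted p = 0.0192) in dorsal SCN, and 1.52 ± 0.188 (adjusted p = 0.00738) over the mean of the regions. Within batch A alone the differences were 1.73, 1.57 and 1.93, and within batch B alone 1.46, 1.38 and 1.01, with 2 arrays a group, where none passed (adjusted p 0.286 to 0.491). The ventral call held without any 1 array (adjusted p 0.00163 to 0.0206). The dorsal call ended without pulsed array 2 (0.0665) or sham array 1 (0.0939), 2 (0.0591) or 4 (0.0517), the central call without sham array 2 (0.0608), and the call over the mean without sham replicate 4 (0.0639). Creb3l1 has 1 probe set.

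Some cell type markers also passed with light, as did 0.719%, 0.385% and 0.178% of all tested genes in ventral, central and dorsal SCN. Of 8 astrocyte markers, 1 passed as higher in ventral, 0 in central and 1 in dorsal SCN. Both calls were Gfap, the filament protein of astrocytes (1.28, 0.97 and 1.33, adjusted p = 0.0180, 0.155 and 0.0319). Of 5 markers of ependymal cells and tanycytes, 1 passed as higher in ventral SCN. This was Vim, another filament protein (1.60, 1.32 and 1.25, adjusted p = 0.00849, 0.0566 and 0.113). None of 8 neuronal, 7 oligodendrocyte, 8 microglial, 7 endothelial and 6 hypothalamic neuron markers passed with light in any region. The mean of the astrocyte list, relative to batch, was 0.44 to 0.58 on pulsed and 0.22 to 0.40 on sham ventral arrays, −0.60 to −0.090 on pulsed and −0.36 to −0.16 on sham central arrays, and −0.76 to 0.22 on pulsed and −0.23 to 0.0092 on sham dorsal arrays. The mean of the ependymal list was −0.10 to 0.49 on pulsed and −0.45 to 0.30 on sham ventral arrays, −0.57 to −0.29 on pulsed and −0.56 to −0.20 on sham central arrays, and 0.28 to 1.23 on pulsed and 0.086 to 0.36 on sham dorsal arrays. The part of these cells in the Creb3l1 difference was not tested.

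Between regions, 1 of 28 chaperones and folding enzymes (Ero1b) passed in ventral against dorsal and in central against dorsal SCN, and 1 of 22 sensors and factors of the unfolded protein response (Wfs1) passed in central against dorsal SCN. None of the 23 degradation and 39 transport genes passed in either, and 0 of the 4 lists' genes passed in ventral against central SCN, beside the 4.61%, 7.11% and 5.2% of all tested genes that passed in those comparisons. At an unadjusted p under 0.05 the degradation genes numbered 1 and 0 in the dorsal comparisons and the transport genes 2 and 2, while ventral against central SCN had 2 chaperones, 1 degradation gene, 2 sensors and factors and 1 transport gene. Ero1b, an oxidase that supplies disulfide bonds, was lower in ventral than in dorsal SCN by 0.77 (−0.77 ± 0.136, 1.70-fold lower, adjusted p = 0.000931) and in central than in dorsal SCN by 1.09 (−1.09 ± 0.136, 2.12-fold lower, adjusted p = 1.36e-05). Ventral arrays read 7.05, 6.76, 8.96 and 8.62 when pulsed and 7.31, 7.16, 8.98 and 8.85 when sham, and central arrays 6.80, 6.44, 8.50 and 8.36 when pulsed and 6.80, 7.10, 8.99 and 8.15 when sham. Dorsal arrays read 7.98, 7.42, 9.34 and 10.01 when pulsed and 8.01, 7.93, 9.79 and 9.34 when sham. Every dorsal array lay above every ventral and central array of its batch. The share of all tested genes with that pattern was not counted, and Ero1b was named because it passed on these arrays. Both differences passed without any 1 array. On sham arrays alone they were −0.70 (adjusted p = 0.0826) and −1.01 (adjusted p = 0.00439).

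Wfs1, the ER-membrane protein of Wolfram syndrome, was lower in central than in dorsal SCN by 0.50 (−0.50 ± 0.150, 1.41-fold lower, adjusted p = 0.0470). That call ended in 18 of the 24 fits that left out 1 array (adjusted p 0.0225 to 0.10). Without pulsed central array 2 the Wfs1 difference was −0.37, and on sham arrays alone it was −0.35 (adjusted p = 0.676). Markers of other cells moved with these regions. In central against dorsal SCN, 6 of 7 oligodendrocyte markers were lower, as were 3 of 6 markers of neighbouring hypothalamic neurons, among them Oxt (−2.29, adjusted p = 0.00232), 2 of 8 neuronal, 2 of 8 microglial, 3 of 7 endothelial and 2 of 5 ependymal markers, and 0 of 8 astrocyte markers passed. Without pulsed dorsal array 4, 3 astrocyte, 3 microglial and 4 endothelial markers passed in that comparison. In ventral against dorsal SCN, where Ero1b was also lower, 5 of 7 oligodendrocyte markers were higher and 3 of 8 astrocyte markers were higher. In that comparison 2 of 6 hypothalamic markers (Oxt at −2.03, adjusted p = 0.00853, and Sst), 2 of 8 neuronal and 2 of 5 ependymal markers were lower, and 0 of 8 microglial and 0 of 7 endothelial markers passed. Without pulsed dorsal array 4, 4 astrocyte and 6 oligodendrocyte markers passed in ventral against dorsal SCN. The mean of the oligodendrocyte list, relative to batch, was 0.86 to 1.43 on pulsed and 0.75 to 1.44 on sham ventral arrays, −1.76 to −0.84 on pulsed and −1.38 to −0.94 on sham central arrays, and −0.16 to 0.33 on pulsed and −0.15 to 0.014 on sham dorsal arrays. The mean of the hypothalamic list, relative to batch, was −0.86 to −0.41 on pulsed and −0.84 to −0.39 on sham central arrays, and 0.16 to 1.15 on pulsed and 0.92 to 1.40 on sham dorsal arrays. The part of these cells in the Ero1b and Wfs1 differences was not tested.

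**Figure D4:**
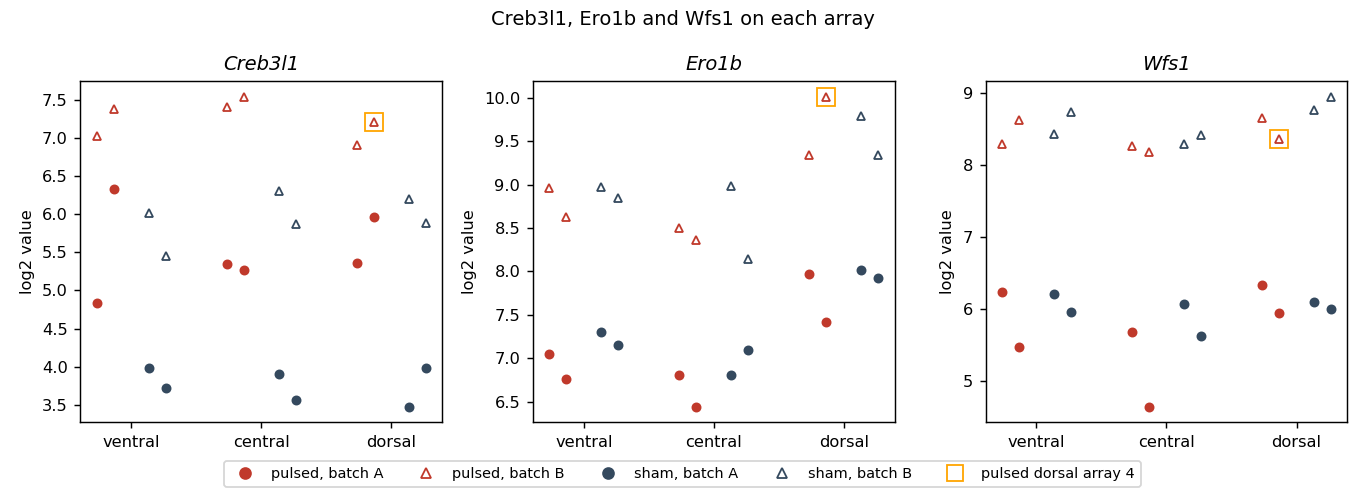
Log2 values of Creb3l1, Ero1b and Wfs1 on each array, by region, with pulsed arrays left of sham arrays, batch A as filled circles and batch B as open triangles. Creb3l1 is higher on pulsed than on sham arrays of the same batch in every region (1.47 to 1.60 log2 units on average), and Ero1b is highest in dorsal SCN.

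Likeness with Hspa5 was measured as Pearson's r over the 24 arrays after the mean of each batch was subtracted. The 6 genes most like it were Usp29 (0.851), Sh3rf1 (0.751), Fam162a (0.741), Psmd6 (0.716), Slc25a14 (0.710) and BC030500 (0.689), beside a median of −0.0348 over the tested genes. Xbp1 had an r of 0.466 and ranked 191 of the tested genes, while Calr (−0.285) and Sdf2l1 (−0.268) were at the other end of the ER genes. Among the 36 pairs of the 9 genes the median r was 0.0757, and 21 pairs were positive. Pdia6 and Herpud1 had the highest r, 0.735, and Calr and Creld2 the lowest, −0.691. Without pulsed dorsal array 4 the median was 0.118 and 20 pairs were positive, Calr and Creld2 had an r of −0.361, and the lowest was that of Calr and Herpud1, −0.528, against −0.0173 with it. Several pairs turned on pulsed dorsal array 4: Pdia6 and Sdf2l1 went to 0.325 without it, against 0.693 with it, Pdia6 and Calr to −0.184, against 0.533, and Pdia6 and Creld2 to 0.695, against −0.229. The arrays share batch and region, so these values are descriptions.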

How the data were processed

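RNA of 24 SCN samples was amplified with 20 ng of bacterial carrier RNA per purification, labelled in 2 batches and hybridised to arrays, per the labels' protocols. The authors deposited 1 log2 value for each of 45101 probe sets and array. GCRMA 2.32.0, MAS5 and R 3.0.2 are listed in the submitters' processing notes, with no role stated. The normalization of the batches is not stated there either. Values of different probe sets were not compared as levels.

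Probe sets were named from the platform annotation: 34945 had 1 symbol, 932 several, 9160 none and 64 were controls. Of those with 1 symbol, 34741 were found in a GRCm38.p6 gene table, which changed 0 symbols. Genes with log2 values over 4 on 4 or more arrays entered the test, and 4699 genes were left out. The test was limma 3.58.1 (R 4.3.3, lmFit and eBayes, two-sided, Benjamini-Hochberg adjustment over 13494 genes, threshold 0.05), with 6 group means and batch as terms on all 24 arrays (17 residual degrees of freedom). The mean over regions was fitted on 8 composites, each the mean of the 3 regions of 1 treatment and replicate number (5 residual degrees of freedom). Precision is limited by the number of arrays. The test was tried on simulated data.

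The ER genes and lists were chosen with earlier results of these data known. The 10 ER genes are all named. Of the other lists, genes past the test were named, filled up by smallest p, and a few further sensors, cell markers and genes of single comparisons were chosen after their values were seen. Same-numbered arrays of one treatment deviated together across regions in 12 of 12 correlations over 0.1 (0.185 to 0.623). Across treatments they did so in 5 of 6 over 0.1 (0.0960 to 0.400). These ranges overlapped, so the correlations do not settle whether the numbers pair regions, treatments or both. A block by treatment and replicate for the regions, and the lists without pulsed dorsal array 4, were added after the data were seen. Alternatives changed the batch term, the replicate block, the filter, array weights, the normalization, the probe set, the batches, the region and each array in turn.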

Additional observations from a re-analysis of the deposited data

Results flagged for a closer look

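In 4 of the 60 groups of 4 arrays (10 genes in 6 groups, log2 values minus the batch mean), 1 array lay far from the other 3 by Dixon's test. Chance gives about 1 such group in 20. Pulsed ventral array 1 was high for Pdia4, at 0.28, with the others at −0.081 to −0.027, and for Dnajb9, at 0.43, with the others at −0.15 to −0.075. Pulsed central array 2 was low for Herpud1, at −0.89, with the others at 0.031 to 0.14. Sham central array 4 was low for Pdia6, at −0.14, with the others at 0.066 to 0.086. Pdia4 was near the filter level on that array. None of the 4 groups is pulsed dorsal, which holds the array with the high Gapdh 3′ minus 5′ difference.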

How the results depend on the processing

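In every light comparison and in the interaction, 0 ER genes passed without any 1 array (range 0 to 0), with the replicate block, which changed no call of an ER gene (Xbp1 in central SCN, adjusted p = 0.168), and within either batch. The replicate block gave 124, 98, 40 and 113 genes of all in ventral, central and dorsal SCN and over their mean, against 97, 52, 24 and 55. The count was 1 in the central light comparison with array weights and with quantile normalization, 1 in ventral against dorsal SCN with array weights (Xbp1, −0.30, adjusted p = 0.0123) and with quantile normalization (Xbp1, −0.35, adjusted p = 0.0161), and 2 in central against dorsal SCN with array weights (Sdf2l1, −0.40, adjusted p = 0.0282, and Xbp1, −0.26, adjusted p = 0.0491). Leaving out 1 array gave 0 to 1 in the 2 dorsal comparisons. The block by treatment and replicate gave 0. Without a batch term 0 genes of all passed with light, and Creb3l1, Ero1b and Wfs1 did not pass. Wfs1 also did not pass with no filter (adjusted p = 0.0540) or with median centring (adjusted p = 0.0750). Array weights gave 576, 204, 353 and 476 genes of all for light in ventral, central and dorsal SCN and their mean, and 1374, 1390 and 1762 for ventral against dorsal, ventral against central and central against dorsal SCN, against 622, 702 and 959. The block by treatment and replicate gave 1541 for central against dorsal SCN. Quantile normalization gave 103 genes of all for light in central SCN, and the arrays of 1 region alone gave 196, 18 and 0 in ventral, central and dorsal SCN. Batch A or B alone gave 0 to 10 for light and 124 to 214 between regions, and no batch term gave 4 to 9 between regions. Leaving out 1 array gave 47 to 207 in ventral, 24 to 164 in central and 12 to 41 in dorsal SCN. The arrays of the dorsal region alone ended the call of Creb3l1 (adjusted p = 0.551).

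Some differences turned sign under some settings, 34 values in all with sizes up to 0.64, none of them past the test. Array weights gave Calr −0.0092, Dnajb9 −0.012 and Pdia6 0.0037 in ventral, Herpud1 0.12 and Pdia6 0.055 in central and Calr 0.00099 in dorsal SCN. Batch A alone gave Creld2 −0.0075, Hspa5 −0.0011 and Sdf2l1 −0.069 in ventral, Creld2 −0.64 in central, Herpud1 0.11 and Xbp1 0.079 in dorsal SCN, Hspa5 −0.0021 for central minus dorsal, and Xbp1 0.039 for ventral minus central. Batch B alone gave Calr −0.029, Dnajb9 −0.059, Herpud1 0.037 and Pdia6 0.035 in ventral, and Dnajb9 −0.055, Herpud1 0.29 and Pdia6 0.25 in central SCN. The mean of all probe sets gave Calr −0.0051 and Pdia6 0.028 in ventral, Herpud1 0.044 and Pdia6 0.056 in central, Herpud1 0.071 and Xbp1 0.16 in dorsal SCN, Hspa5 −0.0039 for central minus dorsal and Xbp1 0.030 for ventral minus central. Median centring gave Calr −0.017 in ventral SCN. Quantile normalization gave Calr −0.0056 in ventral, and Herpud1 0.021 and Pdia6 0.051 in central SCN. Sham arrays alone gave Xbp1 0.11 for ventral minus central.

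Without 1 array, light differences in ventral SCN ran from −0.030 to 0.023 for Calr, −0.034 to 0.090 for Creld2, −0.12 to 0.084 for Dnajb9, −0.0077 to 0.10 for Hspa5, −0.096 to 0.0035 for Pdia6 and −0.020 to 0.19 for Sdf2l1. In central SCN they ran from −0.11 to 0.31 for Creld2, −0.21 to 0.15 for Herpud1 and −0.15 to 0.10 for Pdia6. In dorsal SCN they ran from −0.25 to 0.079 for Herpud1 and −0.21 to 0.045 for Xbp1, and Xbp1 for ventral minus central from −0.090 to 0.032. The cause was not tested.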
